A study of Sus scrofa with 5 samples.

Results

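Nociceptor nuclei of a single pig dorsal root ganglion library were split by the share of their unique molecular identifiers (UMIs, each standing for a captured RNA molecule) that came from the mitochondrial genome. A nucleus entered when its barcode ended in 3, read here as library 3, and when it held at least 1 UMI of SCN10A or SCN11A, which encode the voltage-gated sodium channels of pain-sensing neurons. The nuclei were chosen by their mitochondrial share: the high side took nuclei with a mitochondrial share of at least 20%, summed over the 13 protein-coding mitochondrial rows, and the low side those under 5%. Of 2189 nuclei in the table, 805 were in library 3 and 446 of these were nociceptor nuclei by this rule. The high side held 249 of them, the low side 67, and 130 lay between. The question was how the remaining transcripts, those of the nuclear genome, differed between the sides, as a contrast of nuclear with cytoplasmic RNA.

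The ganglia came from 5 male Landrace pigs, a single group for which the labels give no treatment and no age. Each sample used 80 mg of thoracic and lumbar ganglion. Lysis with Triton X-100 or IGEPAL CA-630 was followed by a density gradient, by magnetic selection or by sorting, the last 2 with antibodies against the neuronal nuclear protein NeuN, per the labels' protocols. Nothing in the labels ties a barcode ending to a pig or to a protocol. Both sides come from the same library, so there are no replicates of the contrast and no test was made. Every interval below is an exact 95% interval for counting error only, and nuclei are not treated as replicates.

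A neuron's nucleus holds newly made transcripts with their introns, many of them from very long genes, together with RNAs that stay at the sites of splicing. Finished messenger RNAs collect in the cytoplasm, where ribosomes translate them, and mitochondrial transcripts are made and kept inside mitochondria, outside the nucleus. In sensory neurons the cytoplasm of the cell body is large and rich in transcripts for ribosomes, energy metabolism, the cytoskeleton and neuropeptides.

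On the high side the mitochondrial share ran from 20.03% to 72.0% with a median of 35.5%. On the low side it ran from 0.0359% to 4.98% with a median of 2.37%. These values are given as a description. The nuclei next to the upper limit had shares of 20.03% and 19.955%, and those next to the lower limit 4.985% and 5.1602%, so neither limit fell in a gap of the distribution. Nuclei of the high side were somewhat deeper, with a median of 3335 non-mitochondrial UMIs (781 to 16593) against 2692 (689 to 20966). Summed, the high side held 977791 non-mitochondrial UMIs and the low side 270419, so the low side set the precision of most ratios. Levels are therefore given as UMIs per 1000000 non-mitochondrial UMIs of a side (CPM). Since they are shares of a fixed total, a higher level of some genes lowers the rest by construction.

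**Figure D1:**
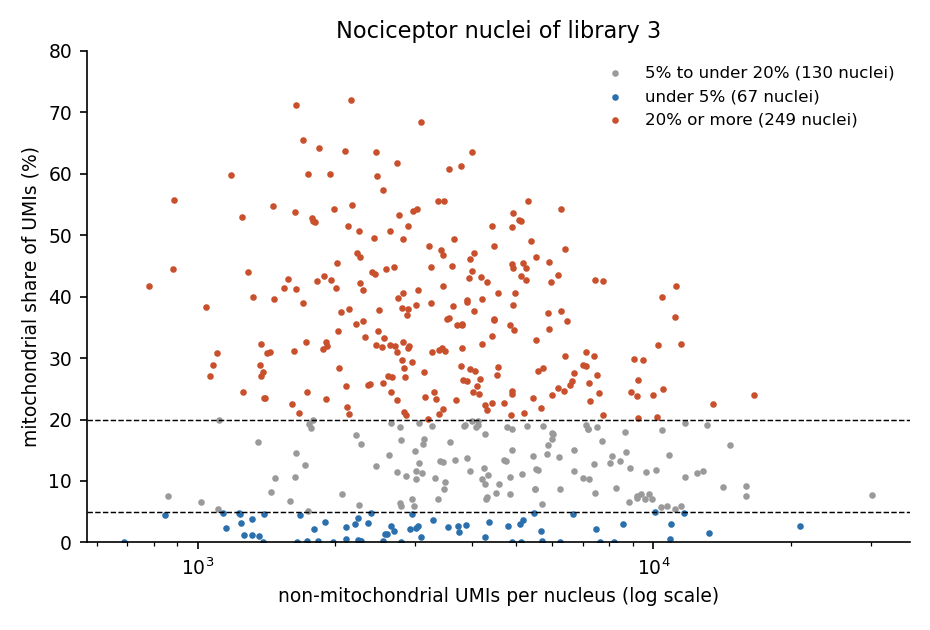
Mitochondrial share of UMIs (y axis, %) against non-mitochondrial UMIs (x axis, log scale) for each of the 446 nociceptor nuclei of library 3; each point is a nucleus, dashed lines mark the limits of 5% and 20%. The 249 high and 67 low nuclei overlap over most of the depth range, with medians of 3335 and 2692 UMIs.

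No nociceptor nucleus of another library reached the upper limit. The highest shares were 16.7% among 416 nociceptor nuclei of library 1, 18.9% among 3 of library 2, 6.48% among 27 of library 4, 1.61% among 280 of library 5 and 0.519% among 234 of library 6. No barcode was shared between libraries. Within library 3 the selection itself moved with the share: a UMI of SCN10A or SCN11A was found in 30.2% of 222 nuclei under 5% (interval 24.2 to 36.7%) and in 65.0% of 254 nuclei at 30% or more (58.7 to 70.8%). Their median depths were 2084.5 and 2699 non-mitochondrial UMIs.

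The make-up of the mitochondrial transcripts was close on the 2 sides. COX2, a subunit of cytochrome oxidase, gave 24.96% of mitochondrial UMIs on the high side and 25.6% on the low side. COX3 gave 19.1% and 19.6%, COX1 18.1% and 19.2%, and ATP6, part of the ATP synthase, 15.3% and 14.1%. ND6, the only protein gene of the light strand, gave 0.108% (0.100 to 0.117%) on the high side and 0.329% (0.204 to 0.503%) on the low side, a higher share on the low side. In nociceptor nuclei of libraries 6 and 5, whose median mitochondrial shares were 0.0641% and 0.115%, ND6 took 3.23% and 5.16% of mitochondrial UMIs.

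Among the nuclear genes, transcripts of ribosomes, the respiratory chain, metabolism and the neuronal cytoskeleton were 2- to 3-fold higher on the high side, while transcripts of long neuronal genes were lower and those of splicing factors had a ratio whose interval included 1. The comparison took the 5152 genes whose UMIs on the 2 sides added up to 50 or more, of which 1271 were at least 1.5-fold higher on the high side (24.7% of the genes) and 578 at least 1.5-fold lower (11.2%). At 2-fold the counts were 722 (14%) and 141 (2.74%). With a minimum of 20 UMIs, 29% and 13.2% of 8146 genes were past 1.5-fold, and with 200 UMIs 15.6% and 11.7% of 1392. The median log2 ratio of high over low was 0.06 over all 5152 genes. The counts of list members given below cover the members that reached 50 UMIs, and are to be read against these shares and those by gene span further below. A gene that is higher on the large high side reaches that number more easily. When genes were instead taken by their UMIs in the nuclei between the sides (at least 30), which neither side could influence, 1237 of 5168 genes were higher and 596 lower.

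Cytosolic ribosomal proteins, the building blocks of the translation machinery, stood at 5642 CPM on the high side and 1941 CPM on the low side, summed over the 52 of 79 listed genes that have a row. This was a 2.91-fold ratio (interval 2.66 to 3.18). The large subunit differed 3.40-fold (2.98 to 3.89) and the small subunit 2.48-fold (2.19 to 2.82). Per nucleus, these transcripts took 0 to 2.76% of non-mitochondrial UMIs on the high side, with a median of 0.502%, and 0 to 0.971% on the low side, with a median of 0.154%. The sides overlapped, but 242 of 249 high nuclei lay above the low side's median and 5 of 67 low nuclei lay above the high side's median. Of the 48 members with at least 50 UMIs, 46 were at least 1.5-fold higher and 0 lower, with a median log2 ratio of 1.66. These genes are short, with a median span of 3.97 kb for the list. Of all 176 genes spanning under 5 kb, 85.2% were at least 1.5-fold higher, with a median log2 ratio of 1.47. RPL28, a protein of the large subunit, had 108 UMIs on the high side and 3 on the low side, 9.96-fold (3.32 to 49.0). Among ribosomal genes with at least 100 UMIs, RPL39, RPS2 and RPS25 followed with ratios of 7.63, 7.19 and 6.78. With fewer UMIs, RPL23A (71 against 2) and RPS23 (87 against 3) gave 9.82 and 8.02, named after their values were seen. The members short of 1.5-fold were RPS24, at 207 against 163 CPM, and RPS4X, at 64.4 against 59.2 CPM, both with intervals that included 1.

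**Figure D2:**
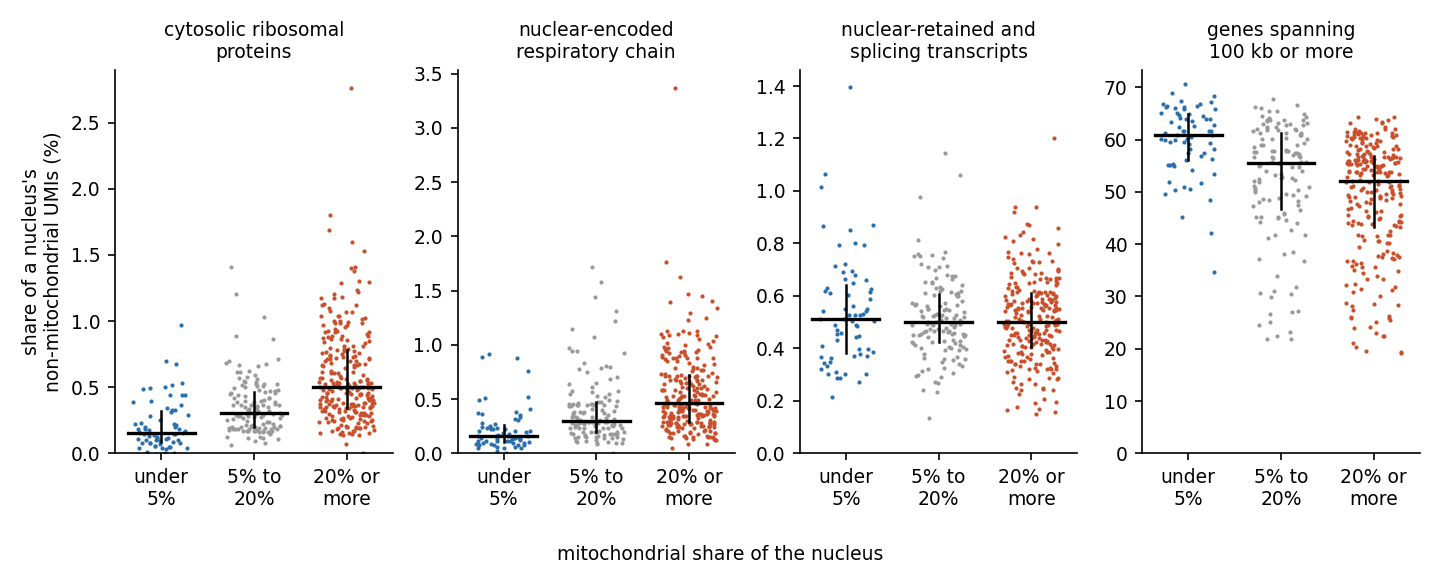
Share of each nucleus's non-mitochondrial UMIs (y axes, %) from 4 gene groups, for nociceptor nuclei of library 3 by mitochondrial share; points are nuclei, the horizontal bar is the median and the vertical bar spans the middle 50%. Ribosomal medians run from 0.154% to 0.502% and those of genes spanning 100 kb or more from 60.9% to 52.0%, while the splicing group stays near 0.5%.

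Translation factors, which load ribosomes and carry transfer RNAs to them, were 2.06-fold higher in sum (1.87 to 2.28), with 15 of 19 members at least 1.5-fold higher and 0 lower. TPT1, the translationally controlled tumour protein, had 270 UMIs against 12, 6.22-fold (3.50 to 12.2). The elongation factor of mature neurons, EEF1A2, stood at 507 against 185 CPM, and its widely expressed relative EEF1A1 at 348 against 196 CPM. The listed member with the lowest ratio was the initiation factor EIF5B, with a log2 ratio of -0.42.

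The nuclear-encoded respiratory chain, whose proteins are made in the cytoplasm and imported into mitochondria to work beside the mitochondrial gene products, stood at 5697 CPM against 2115 CPM, 2.69-fold (2.47 to 2.94). Its transcripts are no part of the 13 rows that set the sides. Of 49 members with at least 50 UMIs, 44 were at least 1.5-fold higher and 0 lower. Complex I, which takes electrons from NADH, differed 2.76-fold (2.39 to 3.20). Complex III differed 2.84-fold (2.16 to 3.8), complex IV, the cytochrome oxidase, 3.20-fold (2.71 to 3.81), and the ATP synthase 2.46-fold (2.02 to 3.03). Complex II, which also serves in the citric acid cycle, differed 1.23-fold, with an interval of 0.900 to 1.70 that included 1. Its members SDHB, SDHC, SDHA and SDHD had log2 ratios of -0.13, -0.38, 0.90 and 1.32, the last from 36 and 4 UMIs.

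NDUFC2, a complex I subunit on chromosome 9 (12486488 to 12492507), had the highest ratio of all named genes, with 131 UMIs on the high side and 2 on the low side, 18.1-fold and an interval of 4.92 to 151. ATP5IF1, the inhibitor that keeps the ATP synthase from running backwards, had 173 UMIs against 5, 9.57-fold (4.02 to 29.8). COX8A, a subunit of cytochrome oxidase, stood at 227 against 33.3 CPM, 6.82-fold (3.53 to 15.1). More abundant members gave narrower intervals. COX4I1 stood at 388 against 115 CPM and NDUFA4 at 256 against 70.3 CPM. Import and upkeep genes of mitochondria were 1.87-fold higher in sum (1.62 to 2.18), with 12 of 13 members at least 1.5-fold higher. They included the outer-membrane channel VDAC3 at 2.96-fold and the import chaperone TIMM10 at 4.33-fold (1.39 to 21.8), whereas the import receptor TOMM70 had a log2 ratio of -0.03.

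Glycolytic and housekeeping transcripts stood at 1.24% of non-mitochondrial UMIs against 0.475%, 2.61-fold (2.46 to 2.76), with 27 of 31 members at least 1.5-fold higher and 0 lower. TMSB10, which binds actin monomers, had 1113 UMIs against 41, 1138 against 152 CPM, 7.51-fold (5.50 to 10.5). GAPDH, the glycolytic dehydrogenase, stood at 307 against 111 CPM. GPI, an enzyme of the same pathway, stood at 409 against 462 CPM, with an interval of the ratio that included 1.

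Neuronal cytoplasmic messenger RNAs, a list of cytoskeletal, vesicle and peptide genes, took 3.05% against 1.43% of non-mitochondrial UMIs, 2.13-fold (2.06 to 2.21), and 31 of 38 members were at least 1.5-fold higher, 0 lower. Per nucleus the medians were 2.37% (0.816 to 11.4%) and 1.04% (0.581 to 4.76%), and 240 of 249 high nuclei lay above the low median. SNCG, a small synuclein of sensory neurons, stood at 1589 against 300 CPM, 5.31-fold (4.24 to 6.72). TUBA1B, an alpha-tubulin, stood at 3219.5 against 1191 CPM and the deubiquitinase UCHL1 at 2784 against 1228 CPM. PRPH, which encodes the intermediate filament peripherin, stood at 384 against 192 CPM.

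Members of that list with larger genes lay nearer to 1. SNAP25, a vesicle fusion protein whose gene spans 131 kb, stood at 574 against 599 CPM, a ratio of 0.958 (0.803 to 1.15). MAP1B, a microtubule-associated protein with a gene of 98.1 kb, stood at 3865 against 2781 CPM, 1.39-fold (1.285 to 1.505). RTN1 had a log2 ratio of -0.24.

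TAC1 encodes the precursor of substance P (chromosome 9, 77197403 to 77206529). It stood at 4224 CPM on the high side and 1265 CPM on the low side, 3.34-fold (2.99 to 3.74). A single nucleus held 132 of the 342 low UMIs, and the log2 ratio of 1.74 was 1.29 without the 5 deepest nuclei of each side and 0.89 without nuclei that held a large-fibre marker UMI. NMB, the bombesin-like peptide neuromedin B, had 353 UMIs against 14, 6.97-fold (4.10 to 12.9). NPPB, the natriuretic peptide of itch neurons, had 335 against 17, 5.45-fold (3.35 to 9.47). Galanin, GAL, had 165 against 10, 4.56-fold (2.42 to 9.69).

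These peptide transcripts were also found in nuclei of library 3 that carried a large-fibre marker and no SCN10A or SCN11A UMI. Such nuclei may include nociceptors in which no SCN10A or SCN11A UMI was captured. Their nociceptor identity genes summed to 2276 CPM at 20% or more and 1471 CPM under 5%. There, TAC1 was found in 73.1% of 52 nuclei at 20% or more and in 49.5% of 91 nuclei under 5%, at 547 and 216 CPM. The matching shares were 83.1% and 65.7% in the nociceptor nuclei. For NPPB they were 13.5% and 6.59% in the large-fibre-marker nuclei against 46.6% and 20.9% in the nociceptor nuclei, and for NMB 17.3% and 2.20% against 37.3% and 16.4%. In the large-fibre-marker nuclei these rested on few UMIs, 9 and 7 for NPPB and 9 and 2 for NMB. GAL was found in only 3.85% and 1.10% of them, from 4 and 1 UMIs, against 32.5% and 8.96% of the nociceptor nuclei. Median depths were 3048 and 2440 non-mitochondrial UMIs in the large-fibre-marker nuclei. The part of free RNA in the ratios of the peptides was not tested.

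**Figure D3:**
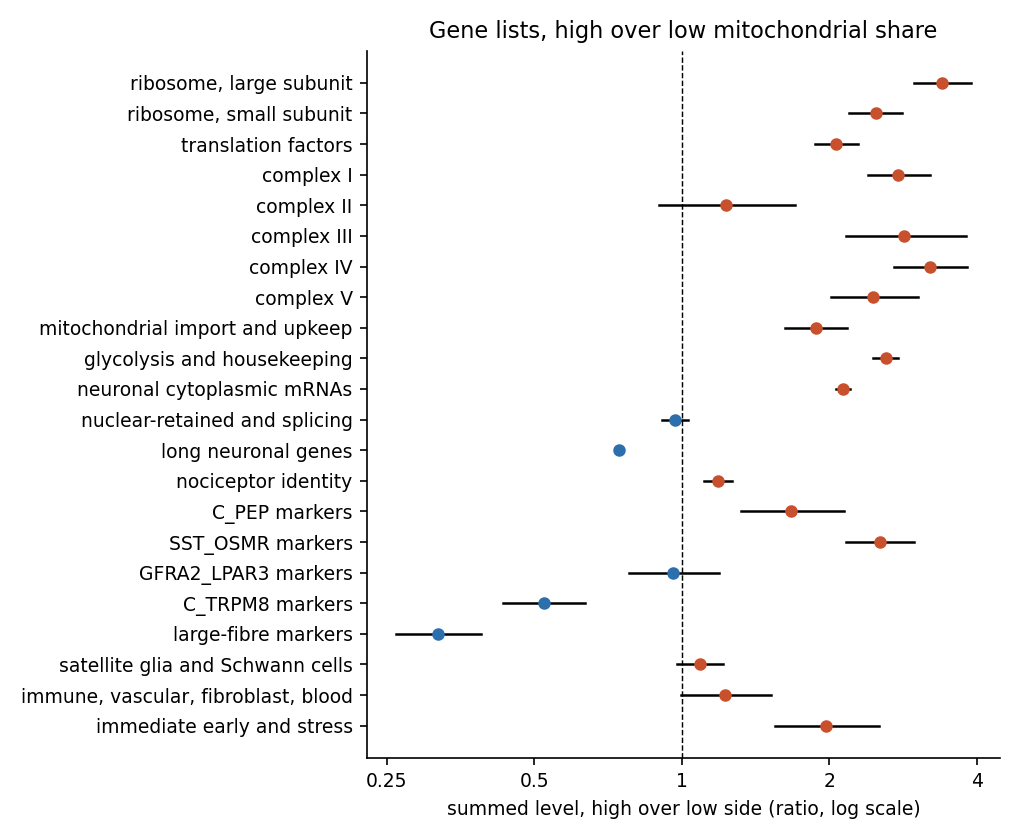
Ratio of the summed level of each gene list, high over low side (x axis, log scale); points are ratios of CPM, bars the exact 95% interval for counting error, and the dashed line marks a ratio of 1. Ribosomal, respiratory, metabolic and neuronal cytoplasmic lists lie at 1.87 or above apart from complex II, the splicing list lies at 0.969, and long neuronal genes lie at 0.743.

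A list drawn up of splicing regulators and of transcripts held to stay in the nucleus stood at 4947 CPM on the high side and 5107 CPM on the low side. The ratio was 0.969 (0.912 to 1.03). Per nucleus the medians were 0.501% and 0.512%, and 131 of 249 high nuclei lay on the far side of the low median. Of 30 members, 1 was at least 1.5-fold higher, 2 lower and 27 neither. Their median log2 ratio was -0.11, with a median span of 26.3 kb for the list, against 0.33 over all genes of 20 to 50 kb. The members named here encode proteins, and whether their transcripts stay in the nucleus was not measured. RBM39, a splicing factor, stood at 265 against 274 CPM, RBM6 at 319 against 325 CPM, and the RNA helicase DDX17 at 378 against 344 CPM. The cyclin CCNL2, which is tied to splicing, stood at 99.2 against 51.8 CPM and had the highest ratio of the list. The splicing kinase CLK4 stood at 66.5 against 107 CPM and had the lowest, from 65 and 29 UMIs. It turned to a log2 ratio of 0.95 when nuclei were thinned to an equal depth, which left fewer UMIs still. The long noncoding RNAs MALAT1, NEAT1 and MEG3 were not analysed here.

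Long neuronal genes, a list of adhesion molecules, receptors and channels with a median span of 980 kb, took 8.91% of non-mitochondrial UMIs on the high side and 12.0% on the low side, 1.35-fold lower (1.33 to 1.36). Of 101 members, 42 were at least 1.5-fold lower and 0 higher. Per nucleus the medians were 9.83% (0.896 to 19.9%) and 12.0% (4.00 to 19.7%), and 192 of 249 high nuclei lay below the low median. PRKG1, a cyclic GMP-dependent kinase that acts in nociceptors, stood at 6681 against 7540 CPM, 1.13-fold lower (1.07 to 1.19). The splicing regulator RBFOX1 was 1.19-fold, the axon guidance receptor ROBO2 1.17-fold and the potassium channel partner KCNIP4 1.37-fold lower. Of these 4, chosen as the members with most UMIs, RBFOX1 was lower under all 12 alternatives run, and the other 3 turned direction under some. PRKG1 had a log2 ratio of 0.14 after thinning to equal depth and 0.16 without glial-marker nuclei. ROBO2 had 0.37 without nuclei that held a large-fibre marker UMI, and KCNIP4 0.03 as a mean over 4 neuron classes set by marker UMIs. Among members with at least 50 UMIs, THSD7B, an adhesion-type protein, was the lowest, with 40 UMIs against 44, 3.98-fold lower (2.53 to 6.26), and the phosphatase PTPRD the highest, with a log2 ratio of 0.24.

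The ratio ran in order with the span of the gene on the genome. A span from RefSeq was matched by symbol for 4699 of the 5152 genes (91.2%). The median log2 ratio was 1.47 over 176 genes spanning under 5 kb, 1.02 over 237 genes of 5 to 10 kb and 0.75 over 379 genes of 10 to 20 kb. It was 0.33, 0.02, -0.17 and -0.30 in the next 4 classes, bounded at 50, 100, 200 and 500 kb. Over 208 genes of 500 kb or more it was -0.44. Of the shortest class 85.2% were at least 1.5-fold higher and 1.14% lower, and of the longest class 0% and 34.6%. Across genes, which are not independent replicates, Spearman's rho between span and log2 ratio was -0.62 over 4699 genes. It was -0.58 over the 4422 genes left without all list members.

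Genes spanning 100 kb or more gave 48.4% of all non-mitochondrial UMIs on the high side and 59.5% on the low side, and genes under 20 kb gave 14.98% and 7.93%. Per nucleus, the short genes took a median of 12.8% (5.56 to 35.4%) on the high side and 6.87% (3.26 to 19.9%) on the low side. The distributions overlapped, with 243 of 249 high nuclei above the low median.

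**Figure D4:**
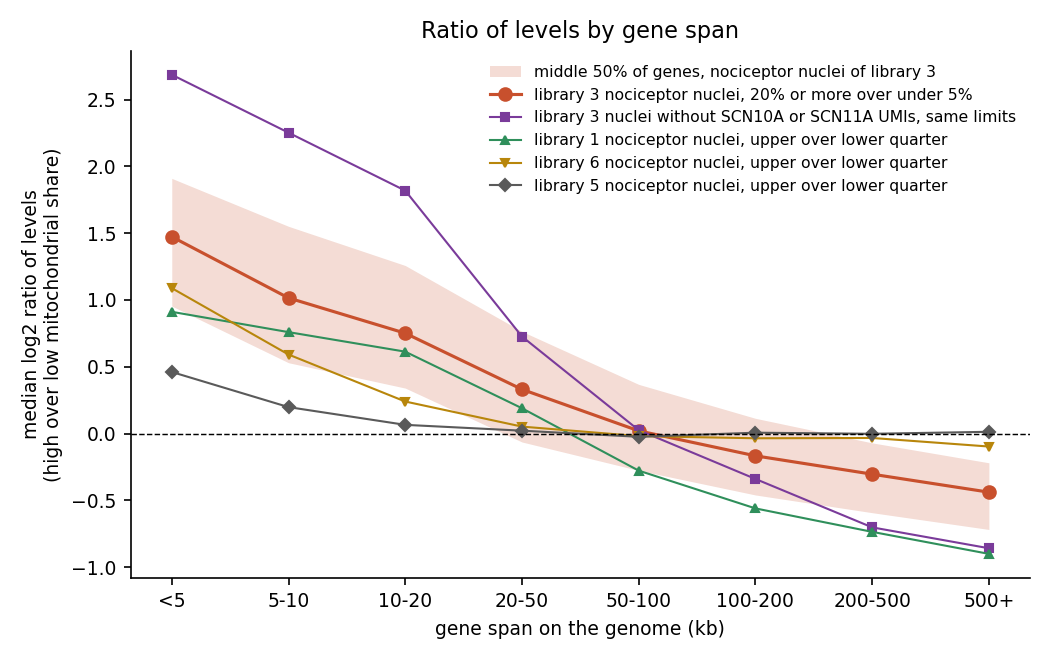
Median log2 ratio of levels, high over low mitochondrial share (y axis), by class of gene span (x axis, kb); the shaded band holds the middle 50% of genes in the nociceptor nuclei of library 3, and lines show the same for other nuclei. Medians in the nociceptor nuclei of library 3 run from 1.47 under 5 kb to -0.44 at 500 kb and more, and those of library 5 stay between -0.02 and 0.07 from 10 kb upwards.

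Some genes lay far from the median of their span class. These were chosen after their values were seen, among genes with at least 100 UMIs. Of those spanning 100 kb or more, the highest were DAB2IP, a signalling adaptor, at 120 against 51.8 CPM (2.31-fold, 1.32 to 4.36), and ACCSL at 218 against 96.1 CPM (2.27-fold, 1.504 to 3.55). SCUBE1, the guidance cue SEMA3D, the glutamate receptor subunit GRIA3 and the ubiquitin ligase WWP2 lay between 2.15-fold and 2.20-fold. Of those under 20 kb, the lowest were the serine protease PRSS55 at 89.0 against 163 CPM (1.83-fold lower) and the polyamine enzyme SAT1 at 80.8 against 141 CPM (1.74-fold lower). RANBP6, SLC25A29 and HERPUD1 were 1.41- to 1.53-fold lower. LPCAT4 had a ratio of 0.642 with an interval of 0.416 to 1.01 that included 1, from 72 and 31 UMIs. Its log2 ratio turned to 0.82 after thinning, which left fewer UMIs still.

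Among the named genes with the lowest ratios, the first was KCNQ3, a subunit of the M-type potassium channel (chromosome 4, 8669969 to 8978656). It had 45 UMIs on the high side and 75 on the low side, 46.0 against 277 CPM and 6.03-fold lower (4.11 to 8.93). The 75 UMIs were spread over 24 nuclei, with at most 8 in any of them. KAZN, a junction-associated protein, was 5.17-fold lower (4.04 to 6.63) and CPNE4, a calcium-dependent membrane-binding protein, 5.04-fold lower (4.05 to 6.28). NTRK2, the receptor for brain-derived neurotrophic factor and a marker of large-fibre touch neurons, was 4.57-fold lower (3.46 to 6.04). SLC24A2, TMEM108, PCDH7, DACH1, PTPRB and the synaptic adhesion molecule NLGN1 were 3.18- to 3.87-fold lower. TMEM108, with a span of 32.2 kb, is the short gene among them. Unlike KCNQ3, some of these genes had many of their low UMIs in a single nucleus. The largest count in a low nucleus was 42 of 202 for CPNE4, 31 of 163 for KAZN and 30 of 125 for NLGN1. It was 25 of 120 for NTRK2 and 22 of 74 for DACH1.

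The markers of large-fibre neurons, NTRK2 among them, were lower in sum. Their sum was 224 CPM on the high side and 703 CPM on the low side, 3.14-fold lower (2.57 to 3.83). Most of its UMIs came from NTRK2 and NTRK3. PVALB and KCNC1 had ratios of 0.830 (0.340 to 2.31) and 0.899 (0.278 to 3.78), with intervals that included 1. Of the 8 markers, NTRK2 had 95 and 120 UMIs, PVALB 21 and 7, SLC17A7 12 and 4, KCNC1 13 and 4, KCNA1 7 and 9, NTRK3 71 and 46, and CALB1 and RUNX3 were at 0 on both sides. At least 2 marker UMIs were found in 52 of 249 high nuclei (20.9%, 16.0 to 26.5%) and 22 of 67 low nuclei (32.8%, 21.9 to 45.4%). Without the nuclei that held any such UMI, 148 high and 24 low nuclei were left. In these the log2 ratio turned to 0.99 for DACH1, 0.43 for PCDH7, 1.19 for SLC24A2 and 0.69 for PRSS55, and was -1.03 for KCNQ3, -1.37 for KAZN, -0.30 for CPNE4 and -0.76 for NLGN1. The summed ratios of the lists kept their direction there: log2 1.70 for cytosolic ribosomal proteins, 1.55 for the respiratory chain and -0.37 for long neuronal genes. Of 2862 genes, 737 were at least 1.5-fold higher and 415 lower.

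**Figure D5:**
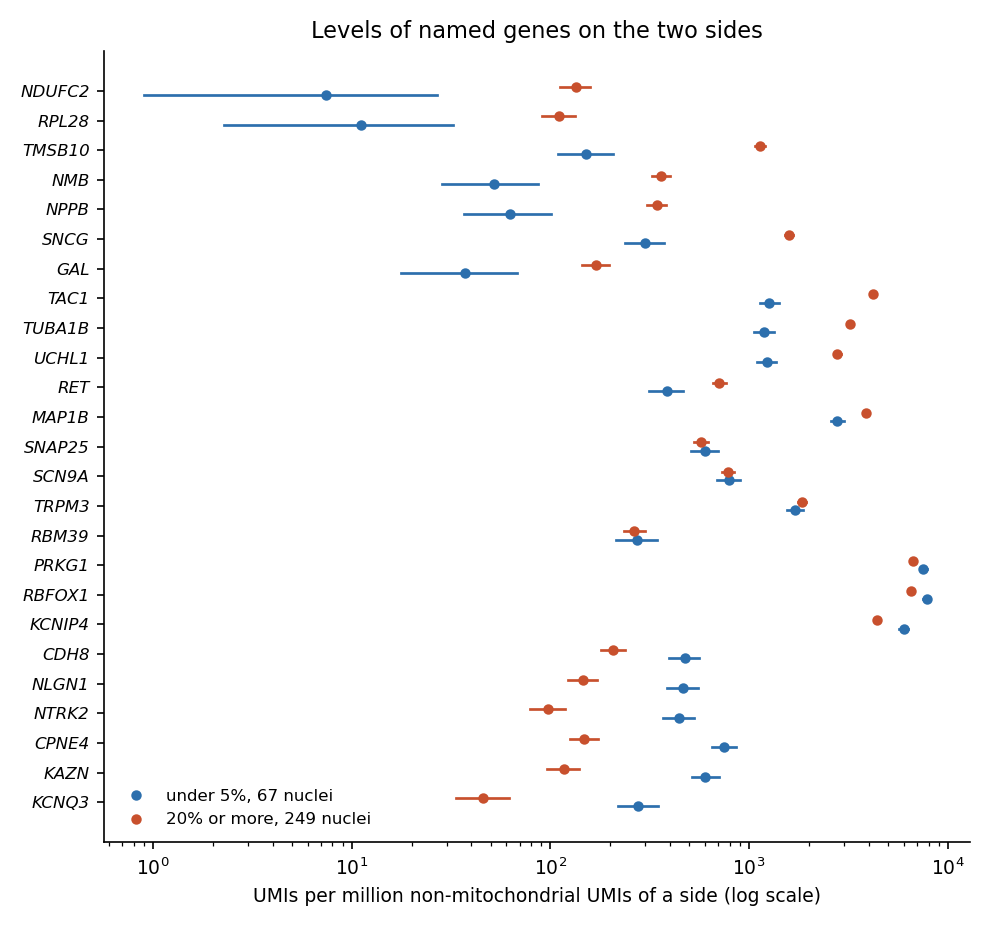
Level of 25 named genes (y axis) on the high and low sides, in CPM (x axis, log scale); points are pooled levels and bars exact 95% Poisson intervals for counting error. Points separate widely for NDUFC2 (134 against 7.40 CPM) and KCNQ3 (46.0 against 277 CPM) and lie together for SNAP25, SCN9A and RBM39.

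Nociceptor identity genes that the rule did not use were compared between the sides, which by itself cannot show what either side is. The sum of 17 identity genes was 5048 CPM on the high side and 4260 CPM on the low side, 1.18-fold (1.11 to 1.26), and 6 of 13 members with at least 50 UMIs were at least 1.5-fold higher, 0 lower. In nuclei of library 3 without SCN10A or SCN11A UMIs the sum was 2980 CPM at 20% or more and 1686 CPM under 5%. SCN9A, a sodium channel of pain neurons, stood at 784 against 791 CPM and the heat-sensing channel TRPM3 at 1845 against 1708.5 CPM, both ratios with an interval that included 1. TRPV1, the capsaicin receptor, stood at 13.3 against 29.6 CPM from 13 and 8 UMIs, a ratio of 0.449 (0.173 to 1.25) with an interval that included 1. RBFOX3, the gene of the NeuN protein, had a log2 ratio of -0.56, a ratio of 0.678 with an interval of 0.465 to 1.005 that included 1. Higher levels were found for the transcription factor gene TLX3, 72 UMIs against 4 and 4.98-fold (1.86 to 18.8), and for the receptor kinase RET, 708 against 385 CPM and 1.84-fold (1.496 to 2.28). SCN10A and SCN11A, which chose the nuclei, had 701 and 446 UMIs on the high side and 269 and 105 on the low side. Only 1 such UMI was held by 52 of 249 high nuclei and 22 of 67 low nuclei.

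The neuron classes of the sides were set beside each other without a test. By the class with the most marker UMIs (at least 2), 77 of 249 high nuclei (30.9%, 25.2 to 37.1%) and 10 of 67 low nuclei (14.9%, 7.40 to 25.7%) carried SST_OSMR markers, those of putative itch neurons. C_PEP markers, of peptidergic C fibres, led in 60 (24.1%, 18.9 to 29.9%) and 8 (11.9%, 5.30 to 22.2%). GFRA2_LPAR3 markers led in 32 (12.9%, 8.96 to 17.7%) and 13 (19.4%, 10.8 to 30.9%). C_TRPM8 markers, of cold-sensing fibres, led in 11 (4.42%, 2.23 to 7.77%) and 8 (11.9%, 5.30 to 22.2%). The intervals of the 2 sides overlapped in each class. In 69 and 28 nuclei no class led. Depth also sets how often a marker is seen, and the markers include NPPB, NMB and GAL, whose own levels differed between the sides.

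Within classes the ribosomal sum was higher on the high side in all 4. It was 1.27-fold (1.04 to 1.57) for C_PEP, 2.79-fold (2.35 to 3.34) for SST_OSMR, 4.65-fold (3.75 to 5.83) for GFRA2_LPAR3 and 4.08-fold (2.99 to 5.65) for C_TRPM8. The respiratory chain gave 1.90, 2.65, 3.11 and 3.00 in the same order. Long neuronal genes were lower in the last 3 classes, with ratios of 0.647, 0.691 and 0.787, but not in the C_PEP nuclei, where the ratio was 1.06 (1.02 to 1.09). In these, with 60 high and 8 low nuclei, translation factors also stood near 1 (1.06, 0.847 to 1.34). No list of splicing transcripts left 1 beyond its interval in any class, with ratios from 0.922 to 1.02.

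The class markers themselves had unequal ratios. The SST_OSMR markers were 2.53-fold higher in sum (2.16 to 2.98), with IL31RA, a subunit of an itch cytokine receptor, at 692 against 366 CPM and NPPB and NMB as above. A single nucleus held 52 of the 99 low UMIs of IL31RA, and its log2 ratio of 0.92 was -0.39 as a mean over the 4 classes. The C_PEP markers were 1.67-fold higher (1.32 to 2.14) and the C_TRPM8 markers 1.91-fold lower (1.57 to 2.31). GFRA2_LPAR3 markers stood at 412 against 429 CPM. Within the SST_OSMR nuclei the SST_OSMR sum was 2.02-fold higher (1.67 to 2.45), and within the C_PEP nuclei the C_PEP sum gave 1.16 (0.852 to 1.62). The same marker UMIs define these classes. As a mean over all 4 classes, which includes those chosen for other markers and with few UMIs, the log2 ratio was 0.17 for the SST_OSMR sum and 0.15 for the C_PEP sum, against 1.34 and 0.74 in the pooled nuclei.

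Markers of satellite glia and Schwann cells, which surround these neurons, stood at 1735 CPM against 1594 CPM in sum, a ratio of 1.09 (0.979 to 1.21). Over the 15 markers with a row, APOE had 312 and 79 UMIs, and SCN7A 736 and 199, while FABP7 and KCNJ10 had 1 each on the high side and 0 on the low side. Markers of immune, vascular, fibroblast and red blood cells stood at 502 against 410 CPM (1.22-fold, 0.994 to 1.52), with CD74 giving 278 of 491 and 42 of 111 UMIs. Immediate early and stress genes were 1.97-fold higher in sum (1.55 to 2.53). That sum rested on the chaperone HSPB1, 298 UMIs against 24, and HSPH1, 157 against 32, since FOS had 5 and 1 UMIs and JUN 0 on both sides. Nuclei with 5 or more glial marker UMIs made up 142 of 249 high (57.0%) and 30 of 67 low nuclei (44.8%). Without them the ribosomal log2 ratio was 1.90, that of the respiratory chain 1.57 and that of long neuronal genes -0.38, while 367 of 1722 genes were at least 1.5-fold higher and 301 lower.

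Levels ran in order between the limits too. Over nuclei under 5%, 5 to 10%, 10 to 20%, 20 to 30% and 30% or more, ribosomal transcripts took 0.194%, 0.288%, 0.368%, 0.418% and 0.664% of non-mitochondrial UMIs. The nuclear-encoded respiratory chain took 0.212%, 0.340%, 0.450%, 0.468% and 0.639%. Long neuronal genes took 12.0%, 10.3%, 9.63%, 9.33% and 8.63%. Splicing transcripts stayed between 0.485% and 0.511% in all 5 classes. The steps were unequal: TMSB10 went from 152 to 435 CPM at the first step and from 736 to 1415 CPM at the last, whereas KCNQ3 went from 277 to 66.6 CPM at the first step and showed no order after it. NMB stayed between 51.8 and 108 CPM up to 30% and stood at 535 CPM above it.

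Across single nuclei on the high side, all above the limit of 20%, the mitochondrial share and the ribosomal share of the remaining UMIs had a Spearman's rho of 0.50 (n = 249). On the low side it was 0.47 (n = 67). For genes of 100 kb or more it was -0.30 and -0.46. These describe nuclei of the same library that share its depth and ambient RNA.

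Nuclei of library 3 outside the rule, without any SCN10A or SCN11A UMI, could be split at the same limits, with 124 nuclei at 20% or more and 155 under 5%. Their ribosomal sum was 4.63-fold higher (4.25 to 5.05), the respiratory chain 5.17-fold higher (4.79 to 5.58), and long neuronal genes had a ratio of 0.547 (0.539 to 0.555). Splicing transcripts gave 0.824 (0.769 to 0.882). Of 3501 genes, 29.4% were at least 1.5-fold higher and 29% lower. Among those with a large-fibre marker UMI (52 and 91 nuclei), 25.7% of 2413 genes were at least 1.5-fold higher and 40.3% lower, the ribosomal ratio was 5.36, the respiratory ratio 6.24 and the ratio of long genes 0.433. These ratios lay further from 1 than those of the nociceptor nuclei, with intervals that did not overlap. The low sides were unlike in mitochondrial share, however. Their median was 0.672% without SCN10A or SCN11A UMIs and 0.416% with a large-fibre marker UMI, against 2.37% in the nociceptor nuclei. Whether this wider contrast, the neuron class or other features of the nuclei set the ratios was not tested. Glial markers were 2.10-fold higher (1.84 to 2.40) in the nuclei without SCN10A or SCN11A UMIs.

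In the other libraries the upper 25% of nociceptor nuclei by mitochondrial share were set against the lower 25%, since the fixed limits left no high side. In library 1 (104 nuclei each, median shares of 6.799% and 2.13%) ribosomal transcripts were 1.75-fold higher (1.69 to 1.81), the respiratory chain 2.49-fold higher (2.40 to 2.58) and long neuronal genes had a ratio of 0.511 (0.503 to 0.520). Splicing transcripts were also lower there, at 0.721 (0.682 to 0.761), and 22.7% of 5375 genes were at least 1.5-fold higher and 28.2% lower. Large-fibre markers were 2.19-fold higher there, and the upper nuclei had a median of 4574 non-mitochondrial UMIs against 4918. In library 6 (59 nuclei each, 0.134% and 0.0204%) ribosomal transcripts were 2.05-fold higher (1.90 to 2.22), the respiratory chain 1.28-fold (1.18 to 1.38), and long genes gave 0.845 (0.836 to 0.854). Splicing transcripts gave 0.889 (0.855 to 0.925). There, 15.3% of 6131 genes were at least 1.5-fold higher and 10.5% lower. In the same split, glial markers were 1.75-fold higher (1.59 to 1.93), immune, vascular, fibroblast and blood markers 1.74-fold (1.503 to 2.01), and stress genes 1.98-fold (1.63 to 2.43), while large-fibre markers had a ratio of 0.369 (0.315 to 0.432). The upper nuclei of library 6 were shallower, with a median of 10440 non-mitochondrial UMIs against 14410. The part of these markers and of depth in the ratios was not tested. In library 5 (70 nuclei each, 0.281% and 0.0231%) the values were 1.55 (1.38 to 1.73), 1.301 (1.16 to 1.45) and 0.839 (0.825 to 0.853), but the medians of the members with at least 50 UMIs did not share these directions. The median log2 ratio was -0.17 over the 3 ribosomal genes with at least 50 UMIs, -0.02 over 5 respiratory genes and 0.04 over 102 long neuronal genes, of which 9 were at least 1.5-fold higher and 14 lower. Across all 280 nociceptor nuclei of library 5, Spearman's rho between mitochondrial share and the summed share of each list was 0.30, 0.19 and -0.36 in the same order. Large-fibre markers were 1.72-fold higher in that split (1.38 to 2.15). Of 3432 genes, 9.06% were at least 1.5-fold higher and 7.17% lower. The upper nuclei of library 5 were shallower, with a median of 4335 non-mitochondrial UMIs against 5518. All 280 nociceptor nuclei of library 5 together held 3161 mitochondrial UMIs, and the 234 of library 6 held 3308. The splits of these libraries thus rest on few mitochondrial UMIs per nucleus. The part of this counting error in their ratios was not tested. Spearman's rho between gene span and log2 ratio was -0.72 in library 1, -0.20 in library 6 and -0.05 in library 5.

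The genes named in the nociceptor nuclei of library 3 did not all carry over, though the splits of libraries 5 and 6 rest on few mitochondrial UMIs per nucleus. In library 1 the log2 ratios of NDUFC2, ATP5IF1, TMSB10 and SNCG were 1.66, 1.302, 1.15 and 1.11. Those of KCNQ3 (47 UMIs), SLC24A2, NTRK2 and DACH1 were 0.47, 0.71, 0.26 and 0.23, and that of NLGN1 was -1.03. TAC1 and GAL gave -0.24 and -1.27 there, and SNAP25, near 1 in library 3, gave 0.99. In libraries 5 and 6 the direction of library 3 was found for TAC1 (0.84 and 1.17), GAL (3.50 from 25 UMIs and 1.67), TMSB10 (1.298 and 1.28) and NLGN1 (-0.95 and -1.12). It was found in library 6 but not in library 5 for SLC24A2 (-2.52 and 0.55) and DACH1 (-1.005 and 1.77). In libraries 5 and 6, KCNQ3 gave 1.33 and -0.16, NTRK2 1.44 and -0.15, and CPNE4 -0.11 and 0.13. KAZN gave -0.75 and -1.57, PTPRB -0.09 and 0.08, PCDH7 0.49 and -0.56, and TMEM108 0.33 and -0.39.

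Set beside whole libraries, the high side was not the most ribosome-rich group. Ribosomal transcripts took 1.24% of non-mitochondrial UMIs in the 416 nociceptor nuclei of library 1, against 0.564% on the high side, 0.194% on the low side, and 0.167% and 0.169% in libraries 5 and 6. Genes of 100 kb or more took 32.2% in library 1, 48.4% and 59.5% on the high and low sides, and 42.3% and 46.7% in libraries 5 and 6. The order of the libraries by these transcripts was not that by mitochondrial share, whose median over nociceptor nuclei was 4.03% in library 1 and 23.4% in library 3. The isolation protocol and the animal behind each library cannot be told apart from the library.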

How the data were processed

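The authors deposited 1 table of raw UMI counts, 30477 genes by 2189 nuclei, with no normalization. Libraries were made with a 10x Genomics kit for 3' ends, per the labels' protocols. The submitters' processing notes list Cell Ranger 6.0.1, Seurat and, as the genome build, Sscrofa11.1. Filters on nuclei before deposit and the counting of introns are not given in the sources used here. Barcode endings 1 to 6 were read as libraries. Totals per library ran from 760816 to 4910023 UMIs. Deeper sums give narrower intervals, which cover counting error only.

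UMIs were summed per side with Python 3.11.15, numpy 2.4.6, pandas 2.3.3 and scipy 1.17.1. Levels carry exact Poisson intervals, ratios exact conditional binomial intervals and shares Clopper-Pearson intervals. Scripts were tested on simulated data. Alternatives changed the limits, marker UMIs, depth, UMI minimum, fold and scaling, the last with a TMM factor from edgeR 4.0.16. No doublet caller was run and no nucleus was removed.

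Named genes were the 10 highest and 10 lowest ratios among genes with a symbol, at least 100 UMIs and an interval without 1. In each list they were the 4 most abundant members and those with the highest and lowest ratio. The genes SNAP25, UCHL1, PRPH and GAPDH were added by name. MALAT1, NEAT1 and MEG3 were also in that rule and were not analysed here. Some items are not reported here. Other list members are given as examples chosen after their values were seen. The nuclei and lists were chosen with earlier results of these data known. The same limits had been planned for the other libraries. The splits at 25% of nuclei, and the nuclei without SCN10A or SCN11A UMIs, were chosen after seeing the data. Spans come from RefSeq for Sscrofa11.1, matched by symbol. Spans of introns and exons were not separated, and protein length was not used here.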

Additional observations from a re-analysis of the deposited data

How the results depend on the processing

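On the log2 scale, the summed ratios of the 7 main lists kept their direction under every alternative run, except the splicing transcripts. These stood at -0.05 and lay between -0.15, without large-fibre-marker nuclei, and 0.05995, without glial-marker nuclei, and were also above 0 at 20% and 3% and after thinning. With limits of 30% and 5%, the values were 1.78 (ribosomal), 1.596 (respiratory chain), 1.53 (glycolysis), 1.19 (neuronal cytoplasmic) and -0.48 (long genes). With 20% and 3% they were 2.05, 1.91, 1.87, 1.42 and -0.56, and 1.59 for translation factors. With at least 2 SCN UMIs they were 1.295 (glycolysis), 1.01 (neuronal cytoplasmic) and -0.39 (long genes). Without the 5 deepest nuclei of each side they were 1.53 (glycolysis) and -0.46 (long genes). Thinned to 1000 UMIs they were 1.299 (ribosomal), 0.99 (neuronal cytoplasmic) and -0.40 (long genes). As a mean of the 4 classes they were 0.95 (neuronal cytoplasmic) and -0.36 (long genes). Without large-fibre-marker nuclei, chosen after seeing the data, they were 1.70 (ribosomal), 1.66 (glycolysis) and -0.37 (long genes). Without glial-marker nuclei, also chosen later, they were 1.90, 1.57, 1.57 and 1.02 for the ribosomal, respiratory, glycolytic and neuronal cytoplasmic lists, 1.31 for translation factors and -0.38 for long genes.

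The counts of 1271 genes higher and 578 lower were 272 and 236 of 1413 after thinning, 2365 and 1073 of 8146 at 20 UMIs, 217 and 163 of 1392 at 200 UMIs, 722 and 141 at 2-fold, and 367 and 301 of 1722 without glial-marker nuclei. Without large-fibre-marker nuclei 737 were higher and 415 lower of 2862. Fewer or more genes were tested in each except at 2-fold. Genes under 5 kb had medians of 1.69 (30% and 5%), 2.01 (20% and 3%), 1.70 (without the deepest), 1.22 (mean of classes), 1.74 (200 UMIs), 1.82 (without large-fibre-marker nuclei) and 2.00 (without glial-marker nuclei). Genes of 500 kb or more had -0.49, -0.54 and, without large-fibre-marker nuclei, -0.30.

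Of 1399 values for 117 named genes, 1183 lay within the interval of the main value and 204 outside it. A further 12 turned direction, counted only for genes at least 1.5-fold apart in the main comparison. Changes of sign in smaller ratios, such as those of PRKG1, ROBO2 and KCNIP4, are held in the other counts. After thinning, CLK4 gave 0.95, COL1A2 0.40 and LPCAT4 0.82. These rest on few UMIs, since the low side held 29, 13 and 31 of them before thinning. COL1A2 gave 1.23 at 20% and 3%. Without large-fibre-marker nuclei, DACH1 gave 0.99, PCDH7 0.43, PRSS55 0.69, SLC24A2 1.19 and IL31RA -0.03773. As a mean of classes, IL31RA gave -0.39 and NTRK3 0.35. TXNIP gave -0.40 without glial-marker nuclei. The cause was not tested. No paired analysis was possible because the contrast lies within 1 library. The low side's 270419 UMIs limit the precision of the ratios, and without a replicate library the spread between libraries is unknown.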
